A study of Mus musculus with 12 samples.

Results

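The genes described here encode RNA-modifying enzymes other than the METTL3-METTL14 pair, together with the aminoacyl-tRNA synthetases. Members were the tested splicing clusters whose gene name was Fto, Adar, Adarb1, Elac2 or Nat10, or belonged by symbol to the Mettl, Alkbh, Trmt, Trmo, Nsun, Pus, Elp, Cdk5rap1 and Tsen families or to the tRNA synthetases, with Mettl3 and Mettl14 left out. The choice used gene symbols alone. It gave 71 clusters of 45 genes with 205 introns, out of 7263 tested clusters with 20437 introns in the series.

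Nascent RNA was sequenced by 4sU-seq in mouse embryonic stem cells. The cells were female hybrid 129S × Cast lines, in which both the untreated and the treated cells carried an FKBP12(F36V) degron fused to the C terminus of METTL3 and a doxycycline-inducible Xist. They came from 2 clones, C3 and H5, so that any property of a clone is shared by its samples. In the dTAG group, 6 samples received dTAG-13, a small molecule that brings FKBP12(F36V) fusion proteins to the ubiquitin ligase cereblon and has them degraded, for 3 h, and in the Ctrl group 6 samples received none. Each group held 3 replicates of each clone, and 4sU, a uridine analogue taken up into new transcripts, was then added for 30 min. The cells were grown on inactivated mouse fibroblast feeders. Among the marker genes examined, 7 of 10 stem cell genes (Nanog, Sall4, Zfp42, Esrrb, Klf4, Tfcp2l1 and Dppa5a) and 1 of 8 fibroblast genes (Fn1) had a tested cluster. These tables give splicing shares and no expression levels, so the abundance of either cell type was not measured.

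A cluster is a set of introns that share splice sites, as LeafCutter builds it from split reads. The value of an intron is its PSI, the fraction of split reads in its cluster that it accounts for, so the PSIs of a cluster add up to 1. The deposited value is 1 fitted PSI per condition over all 6 samples and both clones. No value per sample, clone or replicate was given with it, and no read number, so neither the replicate spread nor the depth behind a PSI is known. All differences below are therefore descriptions without an error or a test. They are PSI in dTAG minus PSI in Ctrl (deltaPSI), and a cluster was counted as past the size threshold when 1 of its introns differed by at least 0.1. Coordinates are those of mm10, as deposited: the start is the last exon base before the intron and the end is the first exon base after it.

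As background, cells write chemical marks on RNA with dedicated enzymes and remove a few of them again. METTL3, the subunit whose degradation was triggered here, makes m6A on nascent transcripts. Most of the other enzymes act on tRNA, rRNA or snRNA, where methyl groups, pseudouridines and anticodon wobble modifications serve folding and decoding. The aminoacyl-tRNA synthetases load each tRNA with its amino acid, in the cytosol and, mostly through separate genes, in mitochondria. The transcripts of all these genes are themselves spliced, often with alternative first exons, tandem splice sites or exons that bring in a stop codon and route the RNA to nonsense-mediated decay.

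The splice sites that competed in the clusters with the largest differences are shown first. Reference sequences are GRCm38, the assembly that mm10 names, and are written 5′ to 3′ on the strand of the gene. For the 5′ splice sites of Mettl2, Alkbh4 and Trmt5, the last 10 exon bases are in capitals and the first 20 intron bases in lower case.
Mettl2, 5′ splice site of intron 2 (chr11:105126858-105126887, plus strand): GAGAAGCAAGgtgcgctccgttgtgcccgc
Mettl2, 5′ splice site of the alternative first exon (chr11:105127432-105127461, plus strand): GAACTTTAAGgtaataggcatcagggggtt
Alkbh4, upstream 5′ splice site (chr5:136136285-136136314, plus strand): CTGCCTTCAGgtacggactaggaaaagagt
Alkbh4, downstream 5′ splice site (chr5:136136390-136136419, plus strand): CTCGCGGTAGgtgagttgtttggagcgctt
Trmt5, distal 5′ splice site (chr12:73286664-73286693, minus strand): AGAGCATGAGgtgaggggttcgggtctgaa
Trmt5, proximal 5′ splice site (chr12:73285884-73285913, minus strand): GAGATTACAGgtaggcaccaccatgcctga

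The second set shows sites so close together that they exchange only a few bases of the messenger RNA. The bases between the sites, which are exon in one form and intron in the other, are in capitals.
Mettl9, 3′ splice sites 3 bases apart (chr7:121076113-121076142, plus strand): gtttttatttgttctagTAGgtggcaagtg
Elac2, 5′ splice sites 5 bases apart (chr11:64992345-64992371, plus strand): agcttctataGTAAGgtagcacgtccc
Trmt10a, 5′ splice sites 5 bases apart (chr3:138143582-138143608, plus strand): cggccccgcgGCACGgtaaatatggca
Rars2, 3′ splice sites 4 bases apart (chr4:34652116-34652145, plus strand): aaaatttttttctaagGCAGacaaagggca
Pus7, 3′ splice sites 4 bases apart (chr5:23743533-23743562, minus strand): tttgtttttgtgttagTCAGcgaggcctac
Pus10, 3′ splice sites 10 bases apart (chr11:23667266-23667295, plus strand): tgctcattttagTTTCTTCTAGtatgcttc

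Of the 71 clusters, 4 were past the size threshold, which is 5.63%. Over all 7263 tested clusters it was 336, or 4.63%, so the members' share stood near the background. The median of the largest difference per cluster was 0.0206 for the members and 0.0214 over all clusters, and 35 members (49.3%, against 47.7% of all) had a largest difference under 0.02. The 4 clusters belonged to Mettl2, Alkbh3, Alkbh4 and Trmt5, and none to a synthetase. The Trmt5 cluster, at 0.103, lay just inside the threshold, and a cluster of Trmt1, at 0.0928, just outside it. A largest difference of at least 0.05 was found in 14 members, or 19.7%, against 19.8% of all clusters, and no member reached 0.2.

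The synthetases and the remaining members, some of which are known to act on protein or DNA, had different medians in this measure. The median largest difference was 0.0331 for the 39 clusters of the 28 genes outside the synthetases and 0.0135 for the 32 clusters of 17 synthetase genes. At least 0.05 was reached by 11 of the former and 3 of the latter, and 23 of the 32 synthetase clusters stayed under 0.02, against 12 of 39. Over all tested clusters 19.8% reached 0.05 and 47.7% stayed under 0.02. An absolute difference is also limited where the minor intron has a low PSI. In Ctrl this was 0.00439 in a Nars cluster, 0.00917 in Iars and 0.0267 in Dars, and 0.00833 in Nsun2 outside the synthetases. By a log2 odds difference of at least 1, the synthetases Nars and Yars2 passed, beside Mettl2, Alkbh4, Nsun6, Trmt1l and Trmt6. The read depth behind the PSIs is unknown for both sets. The part of depth or of low minor PSIs in this contrast was not tested. The contrast itself was not tested either.

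**Figure D1:**
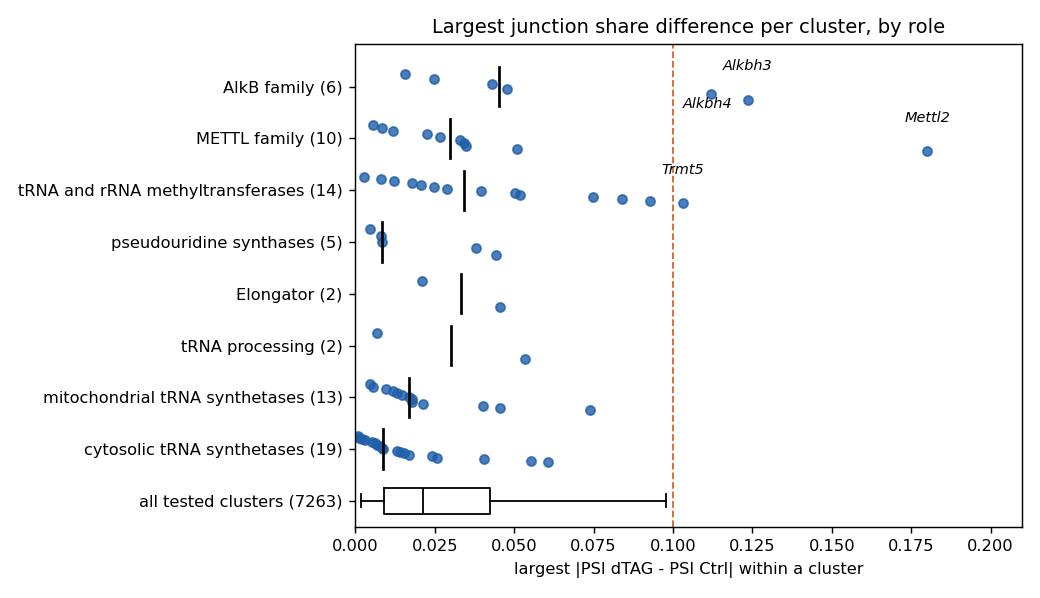
Largest absolute PSI difference between dTAG and Ctrl in each of the 71 member clusters (points; vertical position within a row only separates them), by role, with the number of clusters in parentheses; black bars are medians. The box is the quartiles of all 7263 tested clusters with whiskers at the 5th and 95th percentiles, and the dashed line is the threshold of 0.1, which 4 clusters passed.

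The METTL family had 10 tested clusters in 7 genes. Mettl2, which makes 3-methylcytidine in tRNA anticodon loops, had the largest difference of all members. Its intron 2 on chromosome 11 (105126867-105128741) had a PSI of 0.787 in Ctrl and 0.967 in dTAG. The competing intron (105127441-105128741), which starts 574 bases further downstream and is intron 1 of a processed transcript, had 0.213 in Ctrl and 0.0329 in dTAG. Use of this downstream 5′ splice site was thus lower in dTAG than in Ctrl. It ends the first exon of the processed transcript, but the junction does not show where the exon before it begins. Only 93 of the 7263 clusters, or 1.28%, had a larger difference. Further downstream in the same gene, skipping of a 140-nt coding exon stood at 0.0228 in Ctrl and 0.0282 in dTAG.

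Mettl9, a histidine methyltransferase that acts on protein, offered tandem 3′ splice sites 3 bases apart before its last exon, printed above. The annotated upstream site had a PSI of 0.774 in Ctrl and 0.723 in dTAG, and the unannotated downstream site, whose use leaves out the codon-sized TAG, had 0.226 and 0.277. Those 3 bases were read without an in-frame stop. Mettl18, another histidine methyltransferase, had first-exon ends 94 bases apart, and the downstream one had 0.401 in Ctrl and 0.435 in dTAG. In Mettl25 an unannotated 3′ splice site, 1955 nt into an annotated intron of 25840 nt, had 0.0918 in Ctrl and 0.125 in dTAG. Mettl6, a tRNA methyltransferase, skipped a 142-nt exon at 0.0377 and 0.0575. Mettl4, which acts on snRNA, had 5′ splice sites 51 bases apart, of which the one of protein-coding transcripts had 0.665 and 0.677.

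Mettl16, an m6A methyltransferase in its own right, which acts on U6 snRNA and on hairpins in the Mat2a transcript, had 3 clusters. One of them holds an exon annotated only in a decay transcript. This 66-nt exon on chromosome 11 (74795752-74795817) is shown with its exon bases in capitals because its length keeps the frame and yet it carries an in-frame stop, the TAA that starts at exon base 61.
Mettl16, cassette exon (chr11:74795742-74795827, plus strand): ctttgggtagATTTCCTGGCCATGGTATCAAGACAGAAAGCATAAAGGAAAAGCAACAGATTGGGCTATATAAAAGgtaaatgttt
The junction into this exon had a PSI of 0.181 in Ctrl and 0.146 in dTAG, and the junction out of it 0.257 and 0.284. The skipping junction, which gives the coding form, had 0.562 and 0.570. Exon inclusion, taken as the mean of both flanking junctions over that mean plus the skipping junction, was 0.280 in Ctrl and 0.274 in dTAG, so the flanking junctions differed in opposite directions while inclusion differed by under 0.01. The other Mettl16 clusters differed by 0.00827 and 0.00566.

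In the AlkB family, 2 of 6 clusters were past the threshold that 4.63% of all clusters passed, and its median largest difference was 0.0453 against 0.0214 over all clusters. The AlkB proteins are iron- and oxoglutarate-dependent dioxygenases, which strip methyl groups from RNA, DNA or protein, and the 6 clusters came from 5 genes. Alkbh4, which acts on protein lysines and has been linked to actin, used 1 of 2 5′ splice sites, 105 bases apart, and 1 of 2 3′ splice sites, 124 bases apart, in its first intron. The intron between both upstream sites (chromosome 5, 136136294-136139338) had a PSI of 0.750 in Ctrl and 0.862 in dTAG. The intron to the downstream 3′ splice site had 0.155 and 0.0857. The intron from the downstream 5′ splice site, annotated only in a decay transcript, had 0.0944 and 0.0520. Both minor forms were thus lower in dTAG, the upstream 5′ splice site took 0.906 of the reads in Ctrl and 0.948 in dTAG, and the upstream 3′ splice site 0.845 and 0.914. As a share among introns with the same 5′ splice site the leading intron differed by 0.081, and with the same 3′ splice site by 0.055, both under the threshold.

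Alkbh3, a demethylase of 1-methyladenosine and 3-methylcytidine, was past the threshold through a cassette exon of 89 nt on chromosome 2 (94001425-94001513). The exon is printed in capitals because its length does not keep the reading frame, so that skipping it shifts the frame.
Alkbh3, cassette exon (chr2:94001415-94001523, minus strand): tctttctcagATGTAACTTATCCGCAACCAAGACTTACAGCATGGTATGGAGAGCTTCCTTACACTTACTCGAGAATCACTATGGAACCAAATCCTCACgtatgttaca
The junction into the exon had a PSI of 0.423 in Ctrl and 0.547 in dTAG, whereas the junction out of it had 0.440 and 0.336. The skipping junction differed little, with 0.136 and 0.117. Inclusion of the exon was 0.760 in Ctrl and 0.790 in dTAG. The size of the Alkbh3 difference therefore lay in the balance between the flanking junctions of an exon that was mostly included in both conditions, and by inclusion, or as a share among introns with the same 5′ splice site (0.067), the cluster was not past the threshold.

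Alkbh2, a DNA repair demethylase, held an unannotated exon of 248 nt with an in-frame stop. Its inclusion was 0.141 in Ctrl and 0.111 in dTAG, and the annotated skipping intron had 0.753 and 0.801. Alkbh8, which completes the wobble uridine of selenocysteine and other tRNAs, had an intron that starts from an extra exon of a decay transcript, with the 5′ splice site 1533 bases downstream of the regular one, and it had 0.0842 in Ctrl and 0.127 in dTAG. Alkbh1, which acts on tRNA and on mitochondrial RNA, had the most complex clusters, with 5 and 10 introns, of which the leading ones differed by 0.0249 and 0.0156. Fto and Alkbh5, the demethylases known for m6A, were not among the clusters analysed here.

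**Figure D2:**
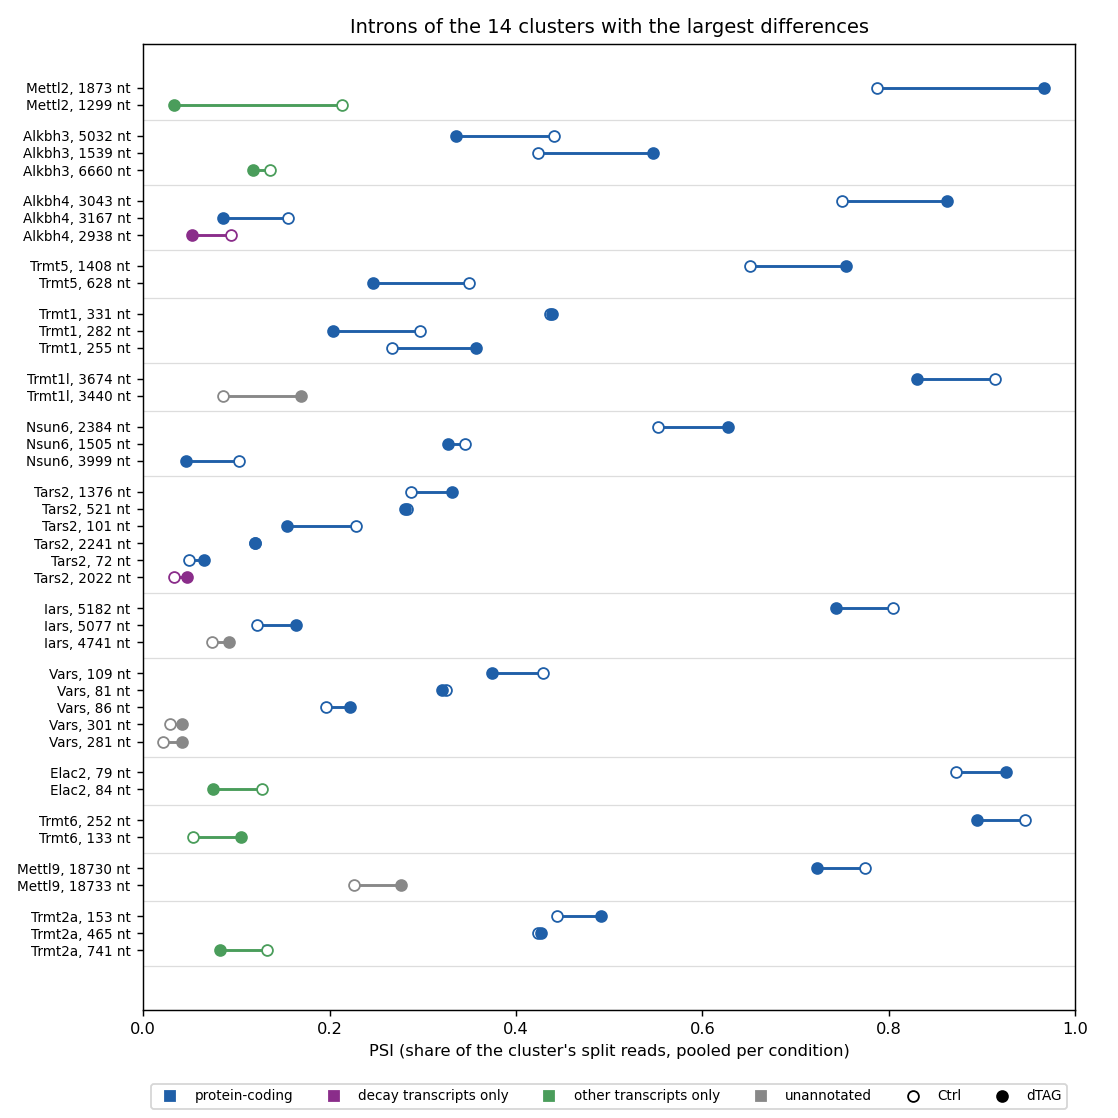
PSI of every intron in the 14 member clusters whose largest difference was at least 0.05, in order of that difference; open points are Ctrl, filled points dTAG, each 1 pooled value over 6 samples, and labels give the intron length. Colour shows the annotation of the intron. The shift between both Mettl2 introns is the widest, and in Alkbh3 both long bars run in opposite directions while that of the skipping intron of 6660 nt is short.

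The tRNA and rRNA methyltransferases gave 14 clusters in 10 genes, of which 6 (42.9%, against 19.8% of all clusters) differed by at least 0.05. Trmt5, which makes 1-methylguanosine beside the anticodon, joined 1 3′ splice site to 2 5′ splice sites, 780 bases apart. The distal one (chromosome 12, intron 73285275-73286684, intron 1 of the transcript with 4 introns) had a PSI of 0.651 in Ctrl and 0.754 in dTAG, and the proximal one, intron 2 of a transcript with 2 introns, had 0.349 and 0.246. Both are annotated in protein-coding transcripts. A second Trmt5 cluster of 4 introns differed by 0.0290 at most.

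Trmt1, which dimethylates a guanosine of many tRNAs, varied within its short first intron on chromosome 8, with 2 5′ splice sites 27 bases apart and 2 3′ splice sites 76 bases apart. The upstream 5′ splice site had 0.297 in Ctrl and 0.204 in dTAG. The downstream 5′ splice site joined to the same 3′ splice site had 0.267 and 0.357, whereas joined to the downstream 3′ splice site it had 0.437 and 0.439. The differences thus lay with the 5′ splice sites joined to the upstream 3′ splice site. Its relative Trmt1l had an unannotated 3′ splice site 234 bases before the annotated one, with an in-frame stop in the bases between them, at 0.0858 in Ctrl and 0.170 in dTAG. Both sites are shown, with the first 10 exon bases in capitals.
Trmt1l, unannotated 3′ splice site (chr1:151439262-151439291, plus strand): tctttttctttttgagacagGCTTTCATTA
Trmt1l, annotated 3′ splice site (chr1:151439496-151439525, plus strand): gctggcccgttcctttccagGCTACAGAAT

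Trmt6, the partner subunit of the enzyme that makes 1-methyladenosine in tRNA, had an intron starting 119 bases further downstream and annotated outside protein-coding transcripts, at 0.0535 in Ctrl and 0.105 in dTAG. Nsun6, a 5-methylcytosine methyltransferase, and Trmt2a, a 5-methyluridine methyltransferase, both had a lower skipping PSI in dTAG. The 110-nt exon of Nsun6 (chromosome 2, 15039733-15039842), whose length shifts the frame, was skipped at 0.102 in Ctrl and 0.0456 in dTAG. Its inclusion was 0.815 and 0.913, the largest inclusion difference among the cassette exons of the members, at 0.0983. The 123-nt exon of Trmt2a, which keeps the frame, was skipped at 0.133 and 0.0825, and its inclusion was 0.766 and 0.848. These are the only exons of the 24 whose inclusion differed by 0.05 or more.

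In Trmt11, which methylates a tRNA guanosine together with TRMT112, the intron that passes over an internal exon in a decay transcript had 0.0865 in Ctrl and 0.0471 in dTAG, and the coding introns on either side of that exon had 0.460 and 0.481, and 0.412 and 0.426. Trmt10a, a tRNA guanosine methyltransferase, chose between 5′ splice sites 5 bases apart, the upstream one with GC in place of GT, and this GC site had 0.340 in Ctrl and 0.352 in dTAG. Trmt44, a tRNA uridine methyltransferase, had 2 clusters with largest differences of 0.0249 and 0.0179. Nsun2, the main 5-methylcytosine enzyme of tRNA, had 2 clusters in which unannotated sites held 0.0126 and 0.00833 of the reads in Ctrl and 0.0154 and 0.0164 in dTAG.

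Pseudouridine synthases isomerize uridine, and 3 genes gave 5 clusters, none past the threshold. Pus1, active on tRNA and messenger RNA in nucleus and mitochondria, had the leading difference. Its 54-nt exon on chromosome 5 (110776554-110776607), which keeps the frame and adds no stop, is printed as the one cassette exon of this family.
Pus1, cassette exon (chr5:110776544-110776617, minus strand): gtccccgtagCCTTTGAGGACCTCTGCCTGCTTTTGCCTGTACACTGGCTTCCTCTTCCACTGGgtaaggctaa
Skipping of this exon had a PSI of 0.846 in Ctrl and 0.890 in dTAG, and both flanking junctions were lower in dTAG, from 0.0814 to 0.0619 and from 0.0726 to 0.0480. Inclusion was 0.0834 and 0.0581. Pus10, which also acts on pri-miRNA processing, had tandem 3′ splice sites 10 bases apart, and the downstream one had 0.298 and 0.260. The 3 clusters of Pus7, a synthase for tRNA and snRNA, differed by 0.00832 or less, including tandem sites 4 bases apart at which the minor site had 0.0205 in Ctrl and 0.0285 in dTAG.

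Elongator adds the first carbon atoms of the wobble uridine side chains. Elp3, its catalytic subunit, had 5′ splice sites 57 bases apart at intron 1, a multiple of 3, and the downstream one had 0.623 in Ctrl and 0.668 in dTAG. In Elp2, a scaffold subunit, unannotated skipping of a 67-nt exon had 0.0121 and 0.0172. Elac2, the nuclease that trims the 3′ end of tRNA precursors, had its larger difference at 5′ splice sites 5 bases apart on chromosome 11. The downstream, coding site (intron 64992359-64992439) had 0.872 in Ctrl and 0.926 in dTAG, and the upstream site, annotated outside protein-coding transcripts, had 0.128 and 0.0744. A second Elac2 cluster differed by 0.00674. Nat10, the cytidine acetyltransferase, was not among the clusters analysed here. Adar and Adarb1, the A-to-I editing enzymes, had clusters that LeafCutter did not test.

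Mitochondrial synthetases gave 13 clusters in 6 genes, of which 1 (7.69%, against 19.8% of all) differed by at least 0.05. Tars2, the threonine enzyme, had 3 neighbouring clusters on chromosome 3. In the cluster of 6 introns around its exons 4 and 5, the regular intron 5 (95750765-95750867) had a PSI of 0.229 in Ctrl and 0.155 in dTAG. Intron 3 of the same transcript (95751630-95753007) had 0.287 in Ctrl and 0.331 in dTAG, and intron 4 had 0.2835 and 0.2812. The intron from a 5′ splice site 29 bases further downstream had 0.0492 and 0.0654. A decay intron that leaves out exon 4 had 0.0325 and 0.0472, and the intron that leaves out both exons had 0.120 in both conditions. Among the introns with the same 3′ splice site, the share of the regular intron 5 differed by -0.12. The next cluster of Tars2 differed by 0.0457 and the third by 0.0117.

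Rars2, the arginine enzyme, had an unannotated 103-nt exon with a TAG in frame from exon base 55, printed here because it is the only cassette exon of the synthetases with an in-frame stop.
Rars2, unannotated cassette exon (chr4:34640864-34640986, plus strand): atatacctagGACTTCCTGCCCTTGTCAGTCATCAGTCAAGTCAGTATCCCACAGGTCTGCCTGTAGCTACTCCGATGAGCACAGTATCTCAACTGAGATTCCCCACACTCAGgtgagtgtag
Its inclusion was 0.0551 in Ctrl and 0.0596 in dTAG. At the tandem sites of Rars2 the unannotated downstream site had 0.0343 and 0.0438. Yars2, the tyrosine enzyme, Iars2, the isoleucine enzyme, and Hars2, the histidine enzyme, differed by 0.0213 or less. In Yars2 an unannotated 3′ splice site had 0.0350 in Ctrl and 0.0171 in dTAG.

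Cytosolic synthetases gave 19 clusters in 11 genes, with a median largest difference of 0.00882 against 0.0214 over all clusters. Of the 19, 14 were under 0.02 (73.7%, against 47.7% of all) and 2 at least 0.05 (10.5% against 19.8%). Iars, the isoleucine enzyme, led. Its first intron on chromosome 13 started from 1 of 3 5′ splice sites, and the upstream one (49682203-49687386) had 0.805 in Ctrl and 0.744 in dTAG. The middle one had 0.122 and 0.164 and the unannotated downstream one 0.0732 and 0.0918, so that both downstream sites were higher in dTAG. Vars, the valine enzyme, had 2 clusters in runs of short introns. In the one on introns 17 to 19, the regular intron 18 had 0.429 and 0.374, and the unannotated introns that pass over an exon had 0.0213 and 0.0418, and 0.0283 and 0.0416.

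Kars, the lysine gene, whose alternative splicing makes a cytosolic and a mitochondrial enzyme, had 8 introns in the cluster at its 5′ end. Intron 1 of the main transcript had 0.471 in Ctrl and 0.479 in dTAG, and the junctions into and out of its alternative exon had 0.0408 and 0.0489, and 0.0499 and 0.0474. Cars, the cysteine enzyme, included a frame-keeping 249-nt exon at its 5′ end at 0.203 in Ctrl and 0.206 in dTAG. Sars, the serine enzyme, included a frame-keeping 72-nt exon at 0.0281 and 0.0322, without an in-frame stop.
Sars, cassette exon (chr3:108427851-108427942, minus strand): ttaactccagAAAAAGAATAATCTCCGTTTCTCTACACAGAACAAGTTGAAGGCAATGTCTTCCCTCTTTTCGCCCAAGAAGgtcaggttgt
Nars, the asparagine enzyme, had 3′ splice sites 3 bases apart, of which the downstream one had 0.315 in Ctrl and 0.332 in dTAG, and decay forms in its other clusters that had 0.00439 in Ctrl and 0.00957 in dTAG, and 0.00975 and 0.0106. The clusters of Aars, Dars, Eprs, Rars and Yars differed by 0.0140 or less.

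Among the events, 24 clusters were cassette exons (33.8%, against 33.2% of all clusters), 18 had alternative 5′ splice sites (25.4% against 22.3%), 15 had alternative 3′ splice sites (21.1% against 25.2%) and 14 were more complex. The cassette exons were 54 to 249 nt long, and 10 of 24 kept the frame. Inclusion was higher in dTAG for 12 of them and lower for 12. The junctions into and out of the exon differed in opposite directions for 20 of the 24, or 83.3%, as for 70.7% of all 2411 cassette clusters. The median absolute inclusion difference was 0.00793 for the members and 0.0161 over all cassette clusters.

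**Figure D3:**
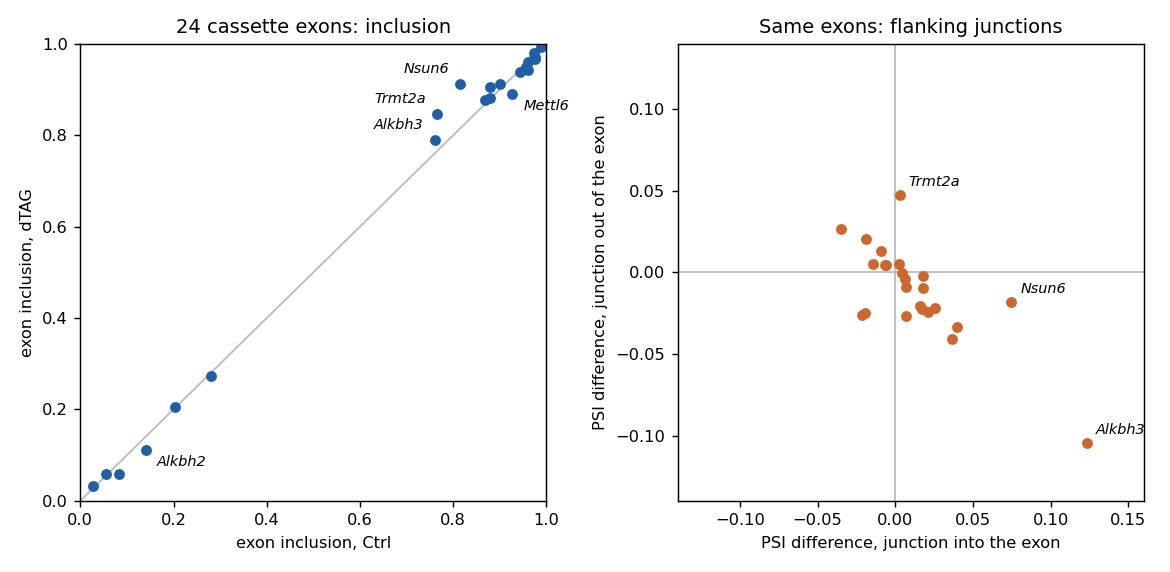
The 24 cassette exons of the members. Left, exon inclusion in Ctrl (horizontal) against dTAG (vertical), with the diagonal of equal values; Nsun6 and Trmt2a stand above it. Right, PSI difference (dTAG minus Ctrl) of the junction into the exon (horizontal) against that of the junction out of it (vertical); most points lie where both have opposite signs, Alkbh3 furthest out.

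For the 33 clusters with a pair of alternative sites, which can belong to the same exon or to different exons, the shorter intron had the higher PSI in dTAG in 23. At alternative 5′ splice sites, where the shorter intron starts from the downstream site, this held for 13 of 18 (72.2%, against 51.6% of all). Mettl2, Trmt5, Trmt10a, Pus7 and Yars2 went the other way. At alternative 3′ splice sites it held for 10 of 15 (66.7% against 51.2%). These counts take the sign alone, whatever the size. Some of the counted differences were very small, such as 0.00289 in Iars, 0.00281 in Nsun2, 0.00101 in Cars and 0.000869 in Nars. Their replicate spread is unknown, and the direction was not tested. The sites of 7 pairs were within 10 bases. A splice site score from the base frequencies at annotated protein-coding introns, in bits, was higher at the more used site of the pair in 7 of 18 and 5 of 15 clusters, against 60.9% and 64.9% of all. The more used site of Mettl2 scored 7.15 and the less used one 7.87, and in Trmt5 it was 9.69 and 8.76. In Mettl9 the more used upstream site scored 8.97 and the downstream one 11.25. Some pairs were near ties: the more used site scored 12.38 against 12.40 in Yars2 and 5.70 against 5.88 in Rars2. In Mettl4 it was 5.27 against 5.12. The scores are those of the reference sequence, and variants of the hybrid cells were not read.

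Of the 205 introns, 162 were annotated in GENCODE M21 (79%, against 74.7% of all), 131 of them in protein-coding transcripts and 18 in decay transcripts only. The decay introns made up 8.78% of the member introns, against 3.88% of all introns. Their median PSI was 0.0745 in Ctrl and 0.0496 in dTAG. They were higher in dTAG for 10 (55.6%, against 54.5% of all decay introns) and lower for 8. Their differences ranged from -0.0424 for Alkbh4 to 0.0430 for Alkbh8. The 43 unannotated introns had a median PSI of 0.0283 in Ctrl and 0.0350 in dTAG, and 27 of them, or 62.8%, were higher in dTAG, as were 51.9% of all unannotated introns. The largest of these differences was the 0.084 of Trmt1l. All but 2 member introns had GT-AG ends. The letters GGACT, a frequent form of the m6A sequence context, occurred on the transcript strand within 200 bases centred on 35 of 140 distinct 5′ splice sites (25%, against 18.9% of all) and on the opposite strand at 23 (16.4% against 16.1%). Among the 14 clusters with a difference of at least 0.05, they were in the window of 3 of 30 5′ splice sites (10%), 1 each in Alkbh3, Alkbh4 and Trmt5. The same share over all clusters with such a difference was not computed, so the 10% has no matching background.

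**Figure D4:**
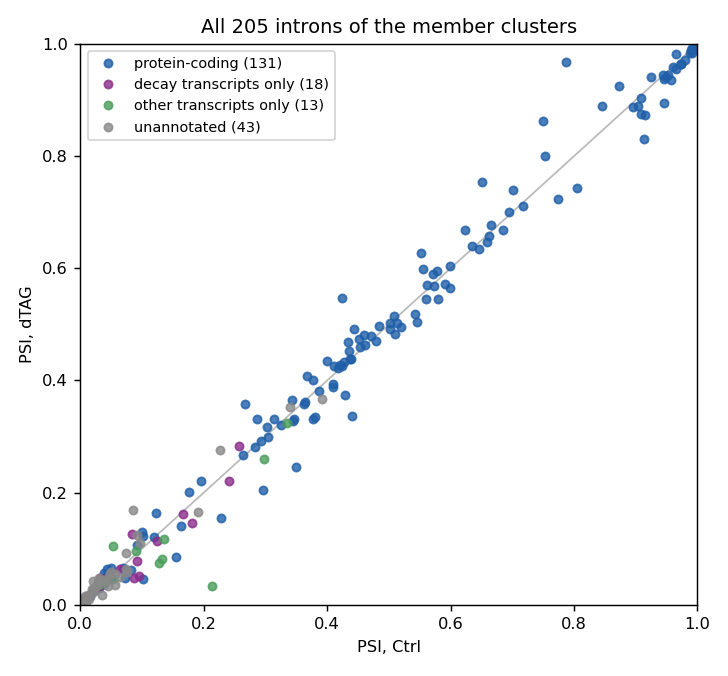
PSI in Ctrl (horizontal) against dTAG (vertical) for all 205 introns of the member clusters, each 1 pooled value per condition, coloured by annotation, with the diagonal of equal values. Unannotated introns cluster at low PSI, and the Mettl2 introns lie furthest from the diagonal.

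A further 18 clusters of these genes were listed but not tested, 13 because too few samples were valid and 5 because at most 1 sample had enough coverage. For 12 genes no other cluster was tested: Adar, Adarb1, Cars2, Cdk5rap1, Mettl17, Mettl22, Mettl26, Nars2, Pars2, Trmt13, Trmt61b and Tsen34. Of 67 further RNA modification genes outside these families, 34 had 58 tested clusters. Of these, 3 (5.17%, against 4.63% of all clusters) were past the threshold. The median largest difference of the 58 was 0.0205, against 0.0214 over all clusters, so both values stood near the background. All 3 clusters held cassette exons and were measured by their leading intron, not by exon inclusion. The leading intron of Trit1 was unannotated. The 3 clusters belonged to Adat3, a subunit of the tRNA adenosine deaminase, with a leading intron at 0.420 in Ctrl and 0.286 in dTAG, to Trit1, which adds isopentenyl groups to tRNA, at 0.155 and 0.288, and to Rpusd1, a pseudouridine synthase homologue, at 0.282 and 0.392. Of 9 partners of synthetases and tRNA end-processing genes, 5 had 9 tested clusters, none past the threshold. The leading one was in Aimp2, a scaffold of the multisynthetase complex, with 0.630 in Ctrl and 0.722 in dTAG.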

How the data were processed

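Nascent RNA was isolated by the authors with TRIzol, biotinylation of 4sU and streptavidin, and libraries were made with a stranded total RNA kit. Reads were aligned to mm10 with STAR 2.5.2b, keeping unique alignments, and LeafCutter v0.2.7 formed clusters of at least 30 split reads and compared 6 dTAG with 6 Ctrl samples, both clones together. The deposited values used here are fractions, the PSI of each intron fitted by the authors per condition. In all 7263 tested clusters they summed to 1 within 0.001. The deposited log effect sizes, PSI differences, likelihood ratios, degrees of freedom and p-values are the authors' own comparison and were not used.

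From the PSIs, differences, cluster maxima, event types and exon inclusion were computed (Python 3.11.15, pandas 2.3.3), after a check on simulated clusters with known answers. The simulated clusters held no replicate or depth noise, so the check covered the computation and not the reliability of a difference. Introns were matched to GENCODE M21 by both ends, and sequences were read from GRCm38 with samtools 1.23.1. Strain variants of the hybrid cells were not read, so site scores and GGACT counts hold for the reference sequence. Exon phase came from protein-coding transcripts. Site scores were log2 base frequencies over 0.25, summed over 3 exon and 6 intron bases at 5′ splice sites and 20 intron and 3 exon bases at 3′ splice sites of 223108 annotated introns. Named were genes past the threshold of 0.1, the leading gene of each role and Fto, Alkbh5, Adar, Adarb1, Elac2 and Nat10 where tested, and the remaining members and the leading genes of the other lists were named after their values were seen. The values of 1 member gene enter the counts and are not reported here. The members and lists were chosen with earlier results of these data known.

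Pooling of both clones before deposit hides any difference between them, and without counts no test, interval or depth could be given. The PSIs of a cluster sum to 1, so the differences of its introns are not independent of each other.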

Additional observations from a re-analysis of the deposited data

How the results depend on the processing

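No paired analysis was possible because the deposited tables hold 1 pooled value per condition, so replicates sharing a number could neither be blocked nor left out in turn. The count of 4 clusters past the threshold was 14 at a threshold of 0.05 and 0 at 0.2, against 19.8% and 1.14% of all tested clusters. With a log2 odds difference of at least 1 it was 7 (7.81% of all), in Mettl2, Alkbh4, Nars, Nsun6, Trmt1l, Trmt6 and Yars2. The count was 4 among clusters with a single gene name (4.61% of all). All 71 members have a single gene name, so this setting could change neither the count nor the median below. Without introns under a PSI of 0.01 in both conditions it was 4 of 69 clusters (4.73% of all). It was 3 when cassette clusters were measured by inclusion (4.43% of all), an alternative chosen after seeing the data that takes out Alkbh3. The median of the largest difference was between 0.0206 and 0.0257 under its 3 alternatives. The last one, with annotated introns only, rested on 51 member clusters and stood above the 0.0230 of all clusters. The main median of 0.0206 stood just below the 0.0214 of all. For the 9 leading introns of the named genes, 24 of 29 alternatives were within 1.5 times of the reported difference and none changed sign. Only 2 of these 24 gave a new value. They were the share among introns with the same 5′ splice site in Alkbh4 (0.081) and annotated introns only in Iars (-0.0491). The others equalled the reported difference because the setting took no intron out, so they do not show how stable it is. As a share among introns with the same 5′ splice site, the difference was 0.067 for Alkbh3 and 0.023 for Pus1. With the same 3′ splice site it was 0.055 for Alkbh4, 0.028 for Pus1 and -0.12 for Tars2. These move by construction, because fewer introns enter the share. The share of annotated introns was 63.9% when only protein-coding transcripts counted, against 64.6% of all introns. What the unknown read depth limits could not be measured.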
